A study of Sus scrofa with 34 samples.

Results

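The genes described here recover bile acids from the ileum and pass the FGF19 signal from the ileum to the liver. They are 8 genes chosen by symbol, SLC10A2, FABP6, SLC51A, SLC51B, FGF19, NR1H4, FGFR4 and KLB, and all 8 were found among the 25880 Ensembl genes of the count tables. The samples were pieces of tissue from weaned crossbred piglets (Landrace × Large White sows, Pietrain boars) collected on day 28 of a feeding trial. Ileum was taken from 5 pigs on the control diet and 5 pigs on the same diet with PFA, a phytogenic feed additive whose main ingredients were carvacrol, menthol, methyl salicylate and the oils of oregano and caraway. Liver was taken from 6 pigs of each of 4 diets, which were control, PFA, OO (a diet with oxidized rapeseed oil) and OO + PFA (both). By the paper's diet composition, the oxidized oil came on top of the other fats, with the other ingredients lowered and a higher calculated energy content. Effects of the oxidation thus cannot be told apart from those of more oil and energy. All 10 pigs with an ileum library also had a liver library under the same pig number. Since all pigs on a diet shared 1 pen, effects of the pen cannot be told apart from those of the diet.

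Bile acids are made from cholesterol in hepatocytes, secreted with bile and taken up again at the end of the small intestine. In the enterocyte, SLC10A2 (the apical sodium-dependent bile acid transporter) imports them, FABP6 (the ileal bile acid-binding protein) carries them in the cytosol, and SLC51A with SLC51B (the α and β subunits of the organic solute transporter) export them into portal blood. Bile acids also activate NR1H4, the nuclear receptor known as FXR, which induces FGF19, a hormone that reaches the liver. There FGF19 binds FGFR4, a receptor tyrosine kinase, together with its co-receptor KLB (β-klotho), and lowers the transcription of CYP7A1, the rate-limiting enzyme of bile acid synthesis.

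NR1H4 binds inverted repeats of a hexamer with 1 base between them, and FABP6, SLC51A, SLC51B and FGF19 are textbook targets of this receptor, so the closest match to such a repeat, AGGTCANTGACCT (its own reverse complement, so that both strands are covered), is shown for these 4 genes within the 300 bases before the RefSeq gene start in Sscrofa11.1. Capitals mark the 13-base match, each sequence is given 5′ to 3′ on the strand of the gene, and the positions are those of the match.
FABP6, chr16:63303809-63303821, minus strand: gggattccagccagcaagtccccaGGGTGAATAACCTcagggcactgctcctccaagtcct
FGF19, chr2:3582849-3582861, plus strand: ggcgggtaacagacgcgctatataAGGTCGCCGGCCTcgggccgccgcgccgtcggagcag
SLC51B, chr1:163080987-163080999, plus strand: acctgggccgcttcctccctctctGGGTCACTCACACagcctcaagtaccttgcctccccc
SLC51A, chr13:133870018-133870030, minus strand: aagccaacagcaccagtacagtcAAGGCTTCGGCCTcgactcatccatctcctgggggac
The FABP6 match began 146 bases before the gene start and differed from the repeat at 3 of the 12 compared bases. The FGF19 match, 178 bases before the start, also differed at 3. A match that close was found in 11.9% of the same windows of 19547 protein-coding genes. The SLC51B window held 4 mismatches, as close as in 55.3% of genes, and the SLC51A window 5, as close as in 97.2%. These letters are a description of the windows and not of binding.

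The 8 genes lie at separate loci. On the RefSeq annotation of Sscrofa11.1, SLC10A2 spans chr11:71328801-71348779, FABP6 chr16:63297594-63303675, SLC51A chr13:133851775-133869753 and SLC51B chr1:163081145-163089491. FGF19 spans chr2:3583027-3586985, FGFR4 chr2:80841536-80853791, NR1H4 chr5:83607222-83732668 and KLB chr8:30653434-30696123. KLB overlaps RPL9, and SLC51B overlaps RASL12 and LOC110261747, all on the opposite strand, and FGFR4 overlaps the microRNA gene MIR7138 on its own strand. The libraries kept the strand, but whether the counting used it is not given in the sources used here, so reads of the genes on opposite strands may have been shared, and strand does not separate FGFR4 from MIR7138.

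Libraries held 18772230 to 24338165 read pairs assigned to genes in ileum and 18738055 to 42446834 in liver. One OO + PFA liver (pig 77), which the study left out for suspected RNA degradation, was left out of the liver fits, which leaves 23 livers, and it held 42.8 CPM of KLB, 18.3 of SLC51B, 88.1 of NR1H4 and 99.3 of FGFR4 with no count of the other 4 genes. Levels are given in CPM, counts divided by the TMM-scaled library size in units of 1e+06 read pairs. Markers of both tissues were present: the 11 measured enterocyte genes summed to between 23670 and 36090 CPM in ileum, and the 8 hepatocyte genes to between 96590 and 220400 CPM in liver against 0.942 to 2.47 in ileum. One control ileum (pig 80) stood apart in the 7 lymphoid markers, which summed to 702 CPM there and to between 163 and 261 in the other 9 ileum libraries. The lowest smooth muscle sum was also in that library (2040 CPM, with 3240 to 9796 in the others).

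The uptake and export genes and FGF19 were higher in ileum, FGFR4 and KLB were higher in liver, and NR1H4 was expressed in both tissues. The 4 genes SLC51B, NR1H4, FGFR4 and KLB passed the filter on low counts in liver as well as in ileum. In the 10 pigs with both tissues, these 4 passed the test between tissues (edgeR quasi-likelihood test without a term for the pig, Benjamini-Hochberg adjusted p of at most 0.05). In that test 78.1% of the 14982 genes tested passed, 40.6% as higher and 37.5% as lower in ileum. SLC51B was higher in ileum, and NR1H4, FGFR4 and KLB were lower. SLC10A2, FABP6, SLC51A and FGF19 entered this fit only through their ileum counts and so had to differ, and their levels are given as a description. The direction of NR1H4 did not hold when libraries were scaled to their total counts, as given below.

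**Figure D1:**
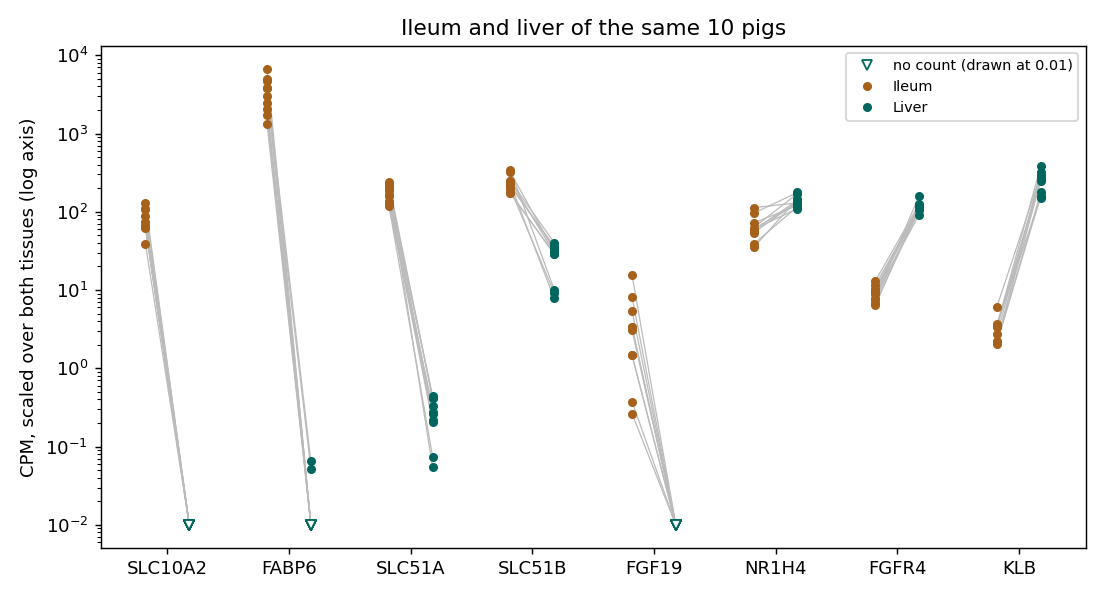
Level of each gene in the ileum (brown) and liver (green) of the same 10 pigs, in CPM scaled over both tissues on a log axis, with a line joining the tissues of each pig and open triangles at 0.01 for libraries without a count. SLC10A2 and FGF19 had no count in any of the 10 livers, while KLB lay at 151 to 383 CPM in liver and 2.04 to 6.13 CPM in ileum.

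FABP6 was among the most abundant transcripts of the ileum: it took 0.208 to 0.965% of the read pairs on genes, and its mean lay above that of 99.9% of genes. In the livers of the 10 pigs it had 2 counts in all, so that its pooled level was 329000-fold higher in ileum, with a 95% Poisson interval of 90900 to 2710000 that covers counting error only. SLC10A2 had 25280 counts in the ileum libraries and 0 in the liver libraries of these pigs, which puts it at least 5130-fold higher in ileum against a limit of 3 counts over the 10 livers. FGF19 had 1277 counts in ileum and 0 in liver, at least 259-fold higher by the same limit. No count of FGF19 was found in any of the 23 livers.

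Both exporter subunits were higher in ileum. SLC51A was at 175 ± 41.4 CPM (SD, n = 10) in ileum and 0.270 ± 0.138 in liver on the scale common to both tissues, a log2 difference of 9.25 ± 0.23 (SE). SLC51B was at 235 ± 56.7 CPM in ileum and 25.8 ± 12.1 in liver, a log2 difference of 3.19 ± 0.29 (edgeR adjusted p = 2.13e-09). Each of the 23 liver libraries held 1 to 25 counts of SLC51A and 121 to 1303 counts of SLC51B.

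KLB was at 257 ± 75.3 CPM in liver and 3.15 ± 1.24 in ileum (log2 difference ileum minus liver -6.39 ± 0.22, edgeR adjusted p = 2.52e-16). FGFR4 was at 117 ± 18.1 CPM in liver and 9.15 ± 2.10 in ileum (log2 difference -3.67 ± 0.13, edgeR adjusted p = 5.45e-16). NR1H4 was at 137.2 ± 22.0 CPM in liver and 64.9 ± 23.8 in ileum (log2 difference -1.08 ± 0.17, edgeR adjusted p = 8.62e-06). With total counts in place of TMM, an alternative added after the data were seen, the median log2 difference of all genes moved from 0.05 to 1.17, 72.9% of genes were called higher and 13.8% lower in ileum, and NR1H4 differed by 0.03 (edgeR adjusted p = 0.864). The order of NR1H4 between the tissues therefore depends on the scaling, and the direction of the other 7 genes did not.

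The other genes of the pathway were read in the same test against the 40.6% of all genes called higher and 37.5% called lower in ileum, which became 72.9% and 13.8% with total counts. Genes with next to no counts in one tissue entered through the other and had to differ. Of the bile acid synthesis genes, 9 of 9 tested were lower in ileum, among them CYP7A1 (0 to 3 counts in each ileum library), CYP27A1 (the first enzyme of the acidic pathway, log2 difference -7.19), AKR1D1 (a steroid reductase, -10.68), ACOX2 (-4.48), HSD3B7 (-3.80) and CYP7B1 (-4.16). Of 8 other bile acid transport genes tested, 7 were lower and none was higher in ileum, among them SLC10A1, the hepatic bile acid importer, which had no count in any ileum library, ABCB11, the canalicular bile salt export pump (0 to 5 counts in each ileum library), SLC27A5 (0 to 2 counts), SLCO2B1 (log2 difference -3.79), ABCC3 (-1.48) and ABCC2 (-2.80). Of 17 regulators of ileal genes tested, 5 were higher and 9 lower in ileum. The higher ones included MALRD1 (a regulator of ileal FGF19 release, with 6481 to 13226 counts in each ileum and 0 to 3 in each liver library), the intestinal transcription factors CDX2 (7.65) and GATA5 (6.59) and the vitamin D receptor VDR (7.49), and the lower ones RXRA, the partner of NR1H4 (-2.27), and GATA4 (-1.96). Of 19 FGF receptor pathway genes, 6 were higher, such as SPRED2 (1.66) and CBL (1.76), and 6 lower, such as FGF21 (0 to 5 counts in each ileum library), EGR1 (-3.31), SPRY4 (-1.87) and FGFR2 (-1.11), where FGFR2 stood at 0.00067 with total counts.

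Set per kilobase of exon, as RefSeq annotates it, the levels of the ileum (10 libraries) were led by FABP6 at 9850 ± 4760 CPM per kb (SD), followed by SLC51B at 320 ± 76.7. Both stood clear of the next gene in all libraries. SLC51A (93.7 ± 21.8 CPM per kb) and SLC10A2 (88.7 ± 29.9) did not differ beyond their spread, since SLC51A was the higher of them in 6 of 10 libraries. NR1H4 followed at 31.2 ± 11.6 CPM per kb, lower than SLC10A2 in 10 of 10 libraries although their ranges overlapped. FGF19 (7.03 ± 7.62) and FGFR4 (4.21 ± 0.98) overlapped, with FGF19 the higher in 5 of 10, and KLB was lowest at 0.688 ± 0.271. In liver (23 libraries) the order was NR1H4 at 30.9 ± 5.45 CPM per kb, FGFR4 at 22.8 ± 4.32, KLB at 22.6 ± 7.40 and SLC51B at 17.1 ± 8.20. Each of these overlapped the next, and FGFR4 exceeded KLB in 11 of 23 livers.

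The question of the ileum comparison was whether PFA changed gene expression there. No member passed the test: 0 of 8 genes were called with PFA against control, where 0% of the 14300 genes tested were called (edgeR quasi-likelihood test). At an unadjusted p under 0.05 there were 2 members, FABP6 and KLB, and 401 genes in all (2.80%), and DESeq2 called 4 genes, none of them among the 8. The median log2 fold change of the 8 genes was -0.17 and that of all genes 0.02.

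**Figure D2:**
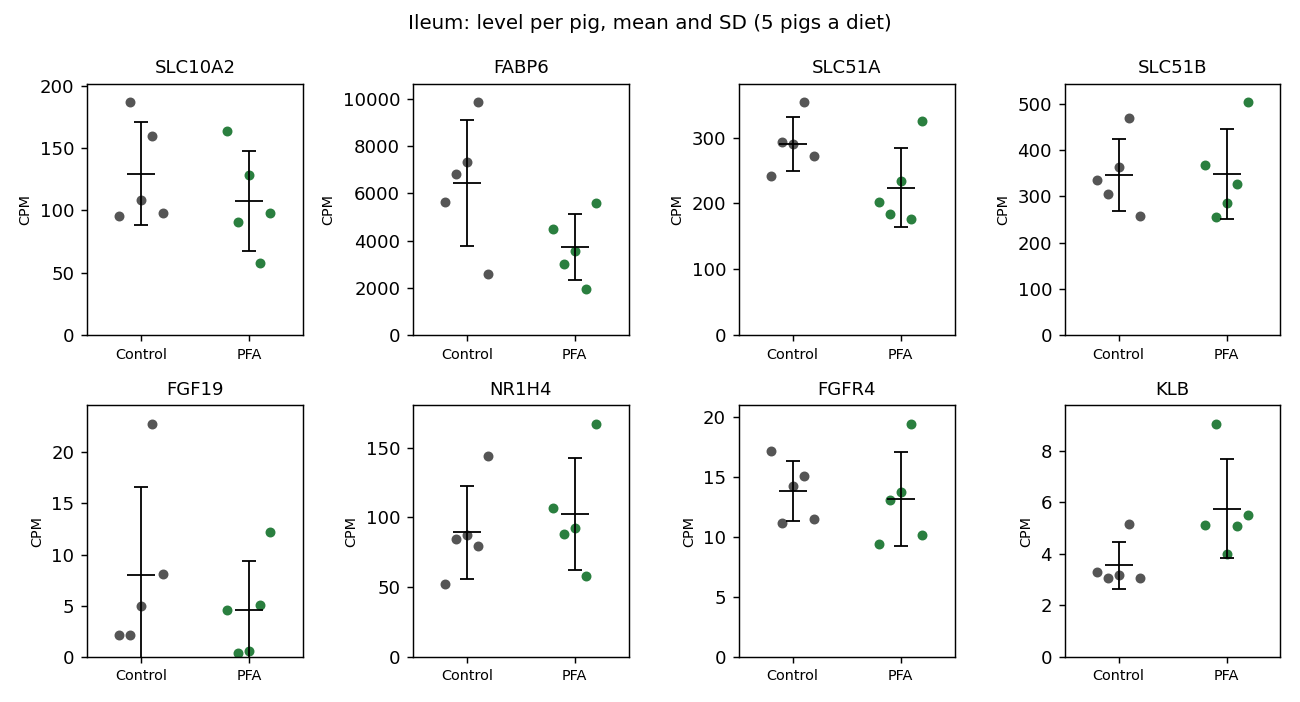
Level of each gene in the ileum of the 5 control (grey) and 5 PFA (green) pigs, in CPM on linear axes from 0, with horizontal bars at the mean and error bars of 1 SD (for FGF19 the lower bars run past 0). The diets overlapped in all 8 genes, and FABP6 was lowest in PFA pig 134 (1967 CPM) and control pig 110 (2567 CPM).

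SLC10A2, the importer, was at 95.6, 187, 108, 159 and 97.8 CPM in the control pigs 71, 80, 92, 100 and 110. In the PFA pigs 75, 95, 107, 134 and 138 it was at 163, 90.5, 129, 57.7 and 98.2 CPM. The diets overlapped, with 2 PFA pigs below all controls, and the log2 fold change was -0.27 ± 0.27 (SE, 95% interval -0.87 to 0.33, edgeR adjusted p = 0.991).

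FABP6, the cytosolic carrier, was at 5646, 6818, 7304, 9851 and 2567 CPM in the control pigs in the same order. In the PFA pigs it was at 4503, 3024, 3553, 1967 and 5568 CPM. Of the controls, 4 of 5 exceeded all PFA pigs, and control pig 110 lay within the PFA range. The log2 fold change was -0.79 ± 0.34 (95% interval -1.54 to -0.04, unadjusted p = 0.0406 and adjusted p = 0.991 by edgeR), and between -0.99 and -0.58 when each pig was left out. The enterocyte markers, which summed to 26840 to 36090 CPM in control and 23670 to 32830 CPM in PFA pigs, had medians of 34760 and 26040 CPM, but the 11 markers diverged. The mean was lower with PFA for 7 of them, among them ANPEP (8694 and 6014 CPM in control and PFA), and higher for 4, APOB (2973 and 3153), KRT20 (2278 and 2554), CDH17 (998 and 1072) and MTTP (689 and 790). With the mean of their log2 levels as a covariate the log2 fold change of FABP6 was -0.56, and the part of enterocyte content was not tested. The paper reports ANPEP itself as differing with PFA in ileum, so this covariate may not stand for enterocyte content alone. In bulk tissue, fewer enterocytes and less RNA per enterocyte cannot be told apart.

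The exporter subunits followed. SLC51A was at 241, 294, 291, 354 and 273 CPM in control and at 202, 184, 235, 176 and 324 CPM in PFA pigs, so that 4 of 5 PFA pigs lay below all controls and PFA pig 138 above 4 of 5. Its log2 fold change was -0.37 ± 0.17 (95% interval -0.75 to 0.00311, unadjusted p = 0.0516 and adjusted p = 0.991 by edgeR). SLC51B was at 336, 306, 364, 468 and 258 CPM in control and at 368, 255, 286, 328 and 504 CPM in PFA pigs. Here the diets covered the same range, with a log2 fold change of 0.01 ± 0.20 (95% interval -0.43 to 0.45, edgeR adjusted p = 0.996).

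FGF19 varied most of the 8 genes, 58.5-fold over the 10 ileum libraries (coefficient of variation 108%, against 23.2 to 48.3% for the other 7). The control pigs were at 2.18, 2.13, 4.94, 22.8 and 8.10 CPM, or 52 to 458 counts. The PFA pigs were at 4.58, 0.389, 0.549, 5.03 and 12.2 CPM, or 9 to 233 counts. The highest value was in control pig 100 and the lowest in PFA pigs 95 and 107. The log2 fold change was -0.82 ± 0.88 with a 95% interval of -2.74 to 1.11 (edgeR adjusted p = 0.991), which leaves room for a several-fold difference in the negative direction, and without control pig 100 it was 0.07, without PFA pig 138 -1.59 and with the enterocyte markers as a covariate -0.34.

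Among the receptors, NR1H4 was at 52.0, 84.4, 87.3, 79.5 and 144 CPM in control and at 107, 88.5, 92.1, 57.7 and 167 CPM in PFA ileum (log2 fold change 0.20 ± 0.29, 95% interval -0.44 to 0.84, edgeR adjusted p = 0.991). FGFR4 was at 11.2 to 17.2 CPM in control and 9.46 to 19.4 CPM in PFA ileum (log2 fold change -0.07 ± 0.21, 95% interval -0.53 to 0.40, edgeR adjusted p = 0.994). KLB was at 3.31, 3.05, 3.16, 5.17 and 3.06 CPM in control and at 5.13, 9.03, 4.01, 5.07 and 5.49 CPM in PFA pigs. Of the controls, 4 of 5 lay below all PFA pigs, and control pig 100 lay among them. The log2 fold change of KLB was 0.70 ± 0.25 (95% interval 0.14 to 1.25, unadjusted p = 0.018 and adjusted p = 0.991 by edgeR) on 57 to 209 counts a library, and 0.46 without PFA pig 95.

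The lymphoid marker sum ranged from 179 to 702 CPM in control and from 163 to 261 CPM in PFA ileum, and with these markers as a covariate the log2 fold changes were -0.79 for FABP6, -1.13 for FGF19 and 0.64 for KLB, with none called. The part of these cells in the values of single pigs was not tested.

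No other pathway gene was called in ileum, with 0 of 16 regulators, 0 of 5 other transport genes, 0 of 8 synthesis genes and 0 of 18 FGF receptor pathway genes. The genes with the smallest p in each list were GATA5 (log2 fold change -1.11) and CDX2 (-0.28), ABCG8 (-0.38) and SLCO2B1 (-0.30), HSD3B7 (-0.32) and CYP27A1 (-0.35), and EGR1, an early response gene (-0.52), and SPRED2 (-0.32), each with an edgeR adjusted p of 0.991. The list medians lay between -0.20 and 0.10, beside 0.02 for all genes.

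In liver, 4 of the 8 genes passed the filter on low counts, namely SLC51B, NR1H4, FGFR4 and KLB, and these were compared over the diets. Over the 4 diets together 0 of 4 were called, where 3.66% of 13831 genes were (edgeR quasi-likelihood F-test). Against control, 0 of 4 were called with OO (2.71% of genes), 0 of 4 with PFA (0% of genes) and 0 of 4 with OO + PFA (5.08% of genes). Between OO + PFA and OO 0 of 4 were called, and 0% of genes. At an unadjusted p under 0.05 there was 1 of the 4 genes over the 4 diets (25.2% of all genes), 1 with OO (21.4%), 2 with OO + PFA (22.6%), 0 with PFA (1522 genes, 11%) and 0 between OO + PFA and OO (1176 genes, 8.5%). In the last 2 comparisons DESeq2 called 43 and 31 genes. The median log2 fold change of the 4 genes and of all genes was -0.25 and 0.06 with OO, -0.14 and 0.03 with PFA, -0.41 and -0.01 with OO + PFA, and -0.12 and -0.02 between OO + PFA and OO. The 3 comparisons with control share the control livers.

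**Figure D3:**
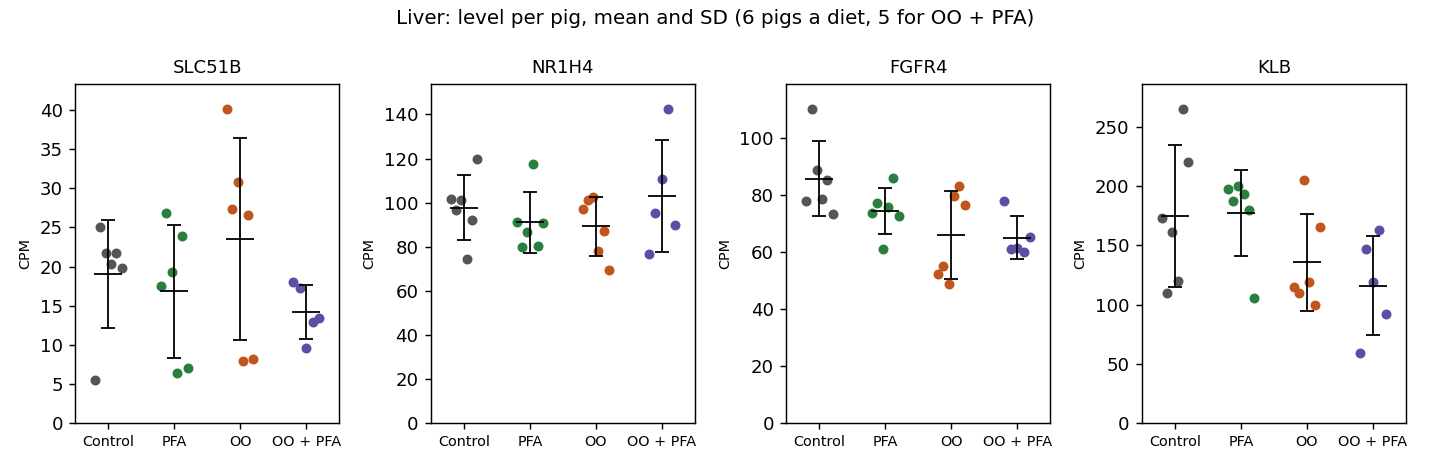
Level of the 4 genes tested in liver by diet (6 pigs each, 5 for OO + PFA), in CPM on linear axes from 0, with horizontal bars at the mean and error bars of 1 SD. FGFR4 was at 73.4 to 110.3 CPM in control livers, and 4 of the 5 OO + PFA livers lay below that range.

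FGFR4, the FGF19 receptor, had the smallest unadjusted p of the 4 genes over the diets (0.0294, edgeR adjusted p = 0.155). Its lowest, median and highest levels were 73.4, 81.9 and 110.3 CPM in control, 61.0, 74.9 and 86.1 in PFA, and 48.8, 65.8 and 83.2 in OO livers. In the 5 OO + PFA livers it was at 77.8, 60.9, 61.3, 60.1 and 65.3 CPM. All diets overlapped with control, and 3 of 6 OO and 4 of 5 OO + PFA livers lay below all controls. The log2 fold change was -0.38 ± 0.14 with OO (95% interval -0.66 to -0.10, edgeR adjusted p = 0.117), -0.40 ± 0.14 with OO + PFA (-0.70 to -0.10, edgeR adjusted p = 0.0998) and -0.20 ± 0.14 with PFA (-0.48 to 0.08, edgeR adjusted p = 0.592). Of 21 alternatives, DESeq2 alone called the OO + PFA difference (-0.425, adjusted p = 0.0476). The share of all genes that DESeq2 called in that comparison is not given here.

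KLB, the co-receptor, was at 109.5, 167 and 265 CPM (lowest, median and highest) in control livers, 105.2, 190.5 and 200.5 in PFA livers and 99.7, 117 and 205 in OO livers. In the OO + PFA livers it was at 59.1, 147, 119, 163 and 91.8 CPM. The ranges overlapped in every pair of diets. The log2 fold change was -0.59 ± 0.26 with OO + PFA (95% interval -1.13 to -0.06, unadjusted p = 0.0312 and adjusted p = 0.17 by edgeR), -0.37 ± 0.25 with OO (-0.87 to 0.14, edgeR adjusted p = 0.404) and 0.02 ± 0.24 with PFA (-0.49 to 0.53, edgeR adjusted p = 0.984). Liver libraries were titled either PigLiv or PL. Within PL libraries alone, an alternative added after the data were seen, the OO difference of KLB was 0.20. That value came from control pigs 80 and 85 and OO pigs 88, 97 and 130, and pig 80 was the lowest control (109.5 CPM).

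**Figure D4:**
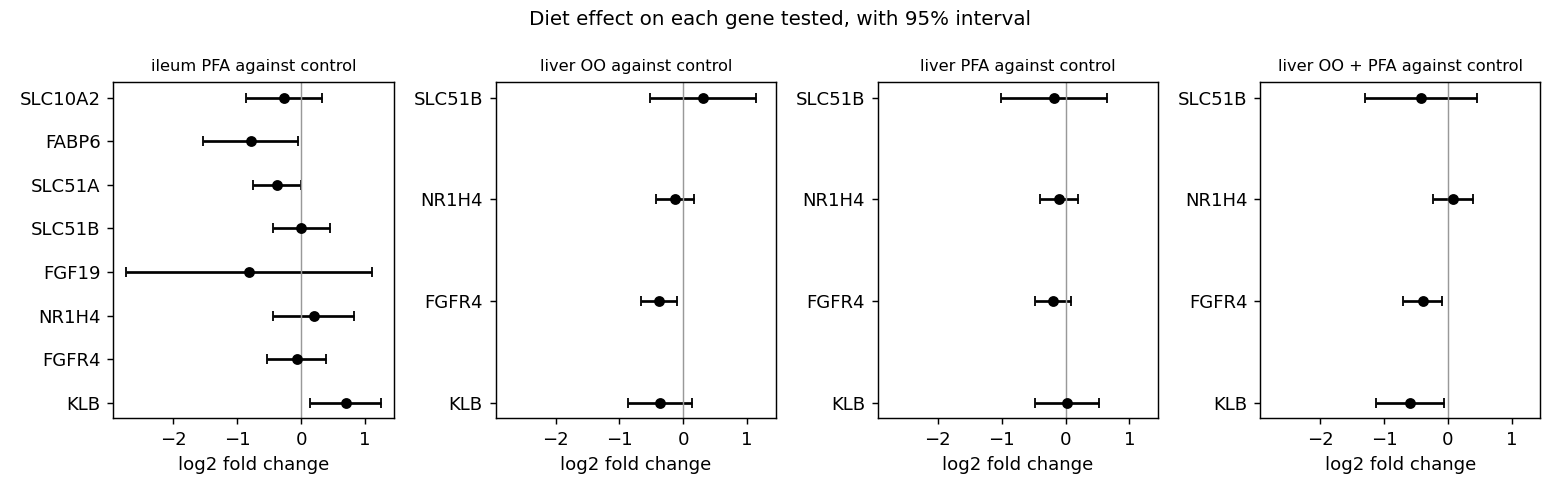
Log2 fold change of each gene tested, with its 95% interval, for PFA in ileum and for the 3 diets against control in liver. The intervals of FABP6 (-1.54 to -0.04) and KLB (0.14 to 1.25) in ileum, and of FGFR4 with OO and OO + PFA and KLB with OO + PFA in liver, do not reach 0, though none of these genes was called after adjustment over all genes.

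NR1H4 had similar ranges in the 4 diets. Its lowest, median and highest levels were 74.6, 98.8 and 119.8 CPM in control, 79.9, 88.7 and 117 in PFA, and 69.3, 92.1 and 103 in OO livers. In OO + PFA livers it was at 76.7, 95.2, 111, 143 and 89.7 CPM. The log2 fold changes against control were -0.13 ± 0.14, -0.10 ± 0.14 and 0.08 ± 0.15 with OO, PFA and OO + PFA, and the 95% intervals ran from -0.43 to 0.39 over the 3 comparisons.

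Over the 23 livers of all diets, SLC51B spread more widely than the other 3 genes (coefficient of variation 47.9%, against 17.6 to 32.8%). Its lowest, median and highest levels were 5.42, 21.0 and 25.0 CPM in control, 6.34, 18.4 and 26.8 in PFA, and 7.87, 27.0 and 40.2 in OO livers. In OO + PFA livers it was at 18.02, 17.2, 9.55, 12.9 and 13.4 CPM. Each diet held 1 or 2 pigs under 10 CPM, and 4 of 6 OO livers exceeded all controls. The log2 fold change was 0.31 ± 0.40 with OO (95% interval -0.52 to 1.13, edgeR adjusted p = 0.698), -0.18 ± 0.40 with PFA and -0.42 ± 0.42 with OO + PFA, and between OO + PFA and OO it was -0.73 ± 0.43 (-1.61 to 0.15, edgeR adjusted p = 0.637).

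The remaining 4 genes were at or near 0 in liver and were not tested in the fit. FGF19 had no count in any of the 23 livers, and FABP6 had 1 count in 1 control and in 1 PFA liver. SLC10A2 had no count in the 6 control and 6 PFA livers, which allows a pooled level of up to 0.016 and 0.0172 CPM. In the 6 OO livers it had 2, 1, 2, 1, 1 and 5 counts, the 5 in pig 130, and in OO + PFA livers 1 count in 2 of 5. The pooled OO level was 0.0745 CPM (95% Poisson interval 0.0385 to 0.13, counting error only). That is 4.66-fold the limit of 3 counts over the control livers, and 3.04-fold without pig 130. Both ratios take the OO counts as exact, so they are not lower bounds on the difference from control. All 6 OO livers lay above all controls, as for 0.571% of the 19437 genes with at least 1 count, on 12 counts in all. Without the filter on low counts the edgeR adjusted p of SLC10A2 was 0.0504 for OO against control and 0.0462 over the 4 diets. Bile duct epithelium is known to express SLC10A2, and the 4 measured bile duct markers summed to 21.0 to 41.1 CPM in OO livers, highest in pig 130, and to 11.9 to 25.4 CPM in control livers. They reached 32.1 CPM in PFA livers and ranged from 19.2 to 36.3 CPM in OO + PFA livers. The OO + PFA liver with the highest sum had no SLC10A2 count, and the one with the lowest sum had 1. Of the enterocyte markers, FABP2, SI and KRT20 had mean levels of 0 to 0.0264 CPM in each diet. APOA1, APOB, ANPEP and MTTP, which hepatocytes also express, made up most of the sum of that list in liver. Diet means ran from 7.6 to 17.1 CPM for VIL1, 2.89 to 3.17 for SLC5A1 and 0.0604 to 0.34 for CDH17. VIL1 and CDH17 had lower means in OO than in control livers. The mean of APOA4 was 15.6 CPM in control, 8.72 in PFA and 26.6 in OO livers, where pig 130 was lowest (19.0 CPM). In OO + PFA livers its median was 23.5 CPM. The highest of them (675 CPM) was 1 of the 2 with an SLC10A2 count. The part of bile duct cells in the SLC10A2 counts was not tested.

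SLC51A was likewise only a few reads in liver, with 33 counts pooled over the 6 control livers, 37 over the PFA, 73 over the OO and 29 over the 5 OO + PFA livers. Its pooled level was 0.176 CPM (95% Poisson interval 0.121 to 0.247) in control and 0.453 (0.355 to 0.57) in OO livers. Of the OO livers, 5 of 6 lay above all controls and pig 99 within them, and without the filter on low counts the edgeR adjusted p was 0.0988 for OO against control.

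Some pathway genes outside the 8 were called in liver, to be read against the 3.66% of all genes called over the 4 diets, 2.71% with OO and 5.08% with OO + PFA. In the list of regulators, 2 of 15 tested were called over the 4 diets. NR0B2, the repressor SHP that NR1H4 induces, was at 6.33 ± 2.62 CPM (SD) in control, 4.21 ± 2.61 in PFA, 20 ± 10.3 in OO and 28.1 ± 20.5 in OO + PFA livers, and it rose 4.45-fold with OO + PFA (log2 2.15 ± 0.49, edgeR adjusted p = 0.0189, lost in 3 of 21 alternatives). With OO its difference was 3.16-fold (log2 1.66 ± 0.47, edgeR adjusted p = 0.0549), and between OO + PFA and OO it was 0.50 ± 0.47 on the log2 scale (edgeR adjusted p = 0.784). NR1I2, the xenobiotic receptor PXR, fell in both oil diets (log2 -0.51 ± 0.14 with OO and -0.68 ± 0.15 with OO + PFA, edgeR adjusted p = 0.0472 and 0.0166), and the call was lost in 16 of 22 alternatives with OO and in 3 of 21 with OO + PFA. Of 19 FGF receptor pathway genes, 1 was called: FGF21, a hormone of the same family that also signals through KLB, rose 3.41-fold with OO and 3.44-fold with OO + PFA (edgeR adjusted p = 0.0305 and 0.0297), with the call lost in 8 of 22 and 7 of 21 alternatives. Of 9 synthesis genes, 1 was called: SLC27A2, a very long-chain acyl-CoA synthetase, rose 3.57-fold with OO and 2.53-fold with OO + PFA (edgeR adjusted p = 2.14e-06 and 0.000328). Of 8 other transport genes none was called, with SLC27A5 (bile acyl-CoA synthetase, log2 -1.07 with OO, -0.99 with PFA and -0.48 with OO + PFA), ABCG5 (-0.33 with OO), ABCB11 (-0.34 with OO + PFA) and ABCG8 (-0.24 with PFA) at the smallest p. With PFA the other genes of smallest p were RXRB (-0.27) and NR1I2 (-0.45), CYP27A1 (-0.27) and CYP7B1 (0.41), and SPRY2 (-0.35) and SPRED1 (0.39), none of them called. Between OO + PFA and OO none was called, with CYP7A1 at 0.92, SLC27A2 at -0.49, PPARA at 0.73, CDX2 at -0.66, ABCC2 at -0.51, ABCG5 at 0.40, EGR1 at 0.84 and SPRED2 at -0.23 on the log2 scale.

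Whether PFA acted differently in the 2 tissues was tested as an interaction in the 10 pigs with both, in a fit without a term for the pig. None of the 8 genes was called, where 0% of 14982 genes were (edgeR quasi-likelihood test, 0 also by DESeq2, and 739 genes at an unadjusted p under 0.05), and no member had an unadjusted p under 0.05. KLB had the smallest p, with a difference of log2 fold changes, ileum minus liver, of 0.72 ± 0.37 (95% interval -0.05 to 1.48, edgeR adjusted p = 0.976). The difference was 0.28 ± 0.34 for NR1H4, 0.11 ± 0.24 for FGFR4, 0.13 ± 0.53 for SLC51B and -0.20 ± 0.49 for SLC51A, and for the other 3 genes the near absence of liver counts leaves it without meaning. No gene of the 4 pathway lists was called, with NR1I2 (0.53), RXRA (-0.67), SLCO2B1 (-0.38), ACOX2 (0.29), SPRY2 (0.39) and GRB2 (-0.28) among those with the smallest p, beside SLC27A5 and CYP7A1, which had 0 to 3 counts in each ileum library.

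The pig numbers allow the ileal genes to be set against the liver of the same animal. In control pigs 71, 80, 92, 100 and 110 the liver held 201, 267, 94.7, 273 and 174 CPM of CYP7A1, beside 2.18, 2.13, 4.94, 22.8 and 8.10 CPM of FGF19 in ileum. In PFA pigs 75, 95, 107, 134 and 138 it held 186, 315, 400, 312 and 132 CPM of CYP7A1, beside 4.58, 0.389, 0.549, 5.03 and 12.2 CPM of FGF19. The PFA pigs with the least ileal FGF19 (95 and 107) had the highest CYP7A1, while control pig 100 had the most FGF19 and the highest CYP7A1 of its diet. Over the 10 pigs Pearson's r was -0.50 (permutation p = 0.142, adjusted p = 0.377 over the 25 pairs computed) and Spearman's rho -0.50 (permutation p = 0.146), and r was -0.06 without the 2 pigs farthest from the median of FGF19. Ileal FGF19 had r of 0.01 with liver KLB, 0.26 with FGFR4, -0.19 with NR1H4 and 0.10 with NR0B2, and ileal FABP6 and SLC10A2 had r of -0.36 and 0.02 with CYP7A1, with adjusted permutation p of 0.377 to 0.983 for all 7 pairs.

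Within ileum, the pairs with the highest r were FABP6 with SLC51A (r = 0.77, rho = 0.77, permutation p = 0.0111 and 0.0121, adjusted p = 0.139 for r) and FGF19 with SLC51B (r = 0.72, rho = 0.65, permutation p = 0.0183 and 0.0499, adjusted p = 0.152 for r). Neither passed over the 25 pairs. Without control pig 110 both passed, at r of 0.89 and 0.93 (exact permutation test, adjusted p = 0.0087 for each). Without the 2 pigs farthest from the median of the first gene, r was 0.52 and 0.59. SLC10A2 with FABP6 had r of 0.68 (permutation p = 0.0308, adjusted p = 0.161), and NR1H4 had r between -0.02 and 0.37 with the other 5 genes. The pairs within one tissue share each library.

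In liver, KLB and CYP7A1 varied together. On deviations from the mean of the diet over 23 livers, r was 0.67 and rho 0.69 (permutation p = 0.00059 and 0.00046, adjusted p = 0.0147 and 0.0115), and this was the 1 pair of 25 that passed. Without the 2 pigs farthest from the median of KLB r was 0.61 (adjusted p = 0.0885), without OO pig 97 0.62 (adjusted p = 0.063), and without PFA pig 138 0.62 (adjusted p = 0.0547), so that the call rests in part on these pigs. Within the title forms r was 0.80 in 14 PigLiv and 0.47 in 9 PL libraries (exact permutation test for the latter, adjusted p = 0.59). Among the 13830 other liver genes tested, 17 (0.123%) followed CYP7A1 at least as closely as KLB did. FGFR4 had r of -0.13 with CYP7A1 (permutation p = 0.558) and NR1H4 r of 0.45 (permutation p = 0.0322, adjusted p = 0.161).

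**Figure D5:**
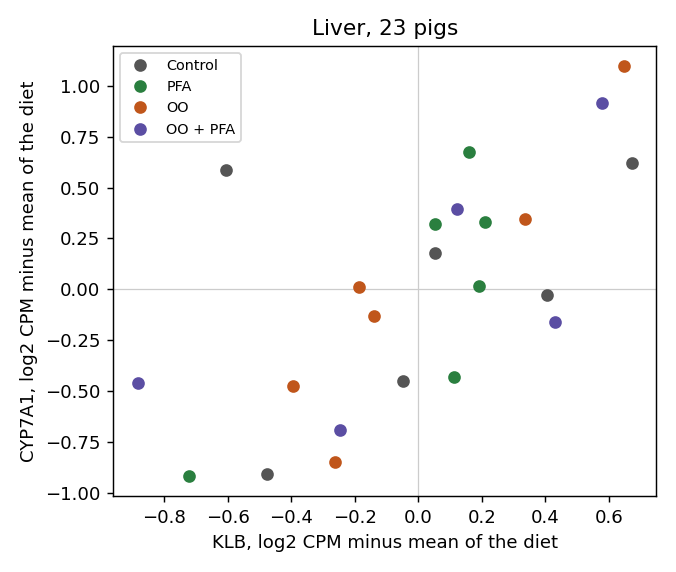
KLB against CYP7A1 in 23 livers, each in log2 CPM as the deviation from the mean of its diet, with 1 point a pig and colours for the diets. The points run from low to high on both axes (r = 0.67), with control pig 80 low in KLB and high in CYP7A1.

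The ileal genes whose pattern over the 10 libraries was most like that of FGF19, out of 12088 tested genes with a symbol, were VPS13D (r = 0.89), SYNE2 (0.87), PLD1 (0.87), ZFP82 (0.87) and RANBP2 (0.83). For FABP6 they were RXRG (0.90), FAM167A (0.85), TBCA (0.84), CWC25 (0.84) and EPSTI1 (0.83). For SLC10A2 they were WBP4 (0.91), MYBPH (0.90), MX1 (0.88), LY96 (0.84) and CCDC77 (0.83). These are descriptions of 10 libraries, and none of the 5 genes nearest to each of them was among the 8.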

How the data were processed

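Read-pair counts per Ensembl gene were deposited by the authors for 10 ileum and 24 liver libraries, made with a stranded poly(A) kit, STAR 2.6.1d on Sscrofa11.1 and HTSeq. The annotation release and strand option are not given in the sources used here. Groups came from the labels. The series tables equalled the 34 single-library tables. Of the read pairs, 13.5 to 36.7% fell on no single gene and were left out.

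Counts were tested with edgeR 4.0.16 (R 4.3.3, limma 3.58.1), using filterByExpr, TMM scaling and the two-sided quasi-likelihood test, with Benjamini-Hochberg adjustment over all genes tested and a threshold of 0.05. DESeq2 1.42.0, other filters and scalings, and leaving out each pig were alternatives. The lymphoid covariate, title-form and total-count alternatives were chosen after seeing the data. Correlations used log2 CPM (prior count 2) and 100000 permutations, exact for fewer than 10 pigs, two-sided. Of 31 planned pairs, 25 were computed. The steps were tested on simulated data.

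The genes and lists were chosen with earlier results of these data known. Named were all 8 genes, per list up to 6 called genes by smallest p or otherwise the 2 with the smallest p, and the 5 genes most like FGF19, FABP6 and SLC10A2. Ileum and liver are paired by animal through the labels' pig numbers. The main fits between tissues and of the interaction had no term for the pig, which entered as a block in an alternative. The deviations from the mean of the diet correlated above 0.1 between the tissues in 8 of 10 pairs (-0.257 to 0.545). Libraries of different pigs were not set beside these pairs, so the values do not test the pairing. The pigs of a diet shared 1 pen, so p-values measure only the spread between pigs within a pen. Intervals and limits from counts cover counting error only.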

Additional observations from a re-analysis of the deposited data

Results flagged for a closer look

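Of 32 groups of pigs examined, 6 held a pig far from the others by Dixon's criterion, which chance gives in about 1 in 20 groups. In ileum both were control pig 100, the highest of its group for FGF19 (22.75 CPM) and for KLB (5.165 CPM). In liver, control pig 71 was lowest for SLC51B (5.423 CPM), PFA pig 107 highest for NR1H4 (117.3 CPM), OO + PFA pig 79 highest for FGFR4 (77.83 CPM) and PFA pig 138 lowest for KLB (105.2 CPM).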

How the results depend on the processing

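Of 2262 single-gene values recomputed under an alternative, 2165 stayed the same, 49 lost and 3 gained a call, and 45 turned sign. Staying the same means the same direction and side of the threshold. Values over the 4 diets have no direction and were read by the call only. Genes that had to differ between tissues are counted among those that stayed the same. The number of the 8 genes called was 1 in place of 0 over the 4 liver diets without a filter on low counts (SLC10A2), 1 in place of 0 for OO + PFA against control with DESeq2 (FGFR4), and 4 in place of 8 between tissues with at least 10 counts in every library, where 4 genes were left to test, since the others have few or no liver counts. The FGFR4 call came in 1 of 21 alternatives. The shares of all genes called in these liver fits are not given here, so neither liver call is set against its own background. The correlations passing were 0 without the 2 farthest pigs, 0 in PL libraries only, and 0 to 3 when each pig was left out. With the pigs as a replicate block, 8 genes were called between tissues and 0 in the interaction. Without the block 78.1% of all genes were called between tissues, and the share with the block is not given here. Of the 8 genes, 4 entered only through their ileum counts and had to differ. The block changed no other call.

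These log2 values turned sign, and the cause was not tested. In ileum, SLC51B was -0.000838 with DESeq2 size factors, -0.000834 with DESeq2 and -0.0423 with the lymphoid covariate, and FGFR4 was 0.0229 with the enterocyte covariate. Leaving out each pig gave -0.163 to 0.141 for SLC51B, -0.25 to 0.0318 for FGFR4, -1.59 to 0.074 for FGF19 and -0.0512 to 0.435 for NR1H4. In PL libraries only, OO against control was -0.0942 for SLC51B and 0.203 for KLB. The PL fits held a single OO + PFA liver, so their values for that diet rest on that library alone. They were -0.17 for NR1H4 against control, and -0.019 for NR1H4, 0.136 for FGFR4 and -0.155 for CYP7A1 against OO. In PigLiv libraries only, PFA against control was 0.0384 for NR1H4 and -0.236 for KLB, and OO + PFA against OO 0.124 for KLB. With all 24 livers FGFR4 was 0.106 for OO + PFA against OO. Leaving out each pig gave -0.0835 to 0.178 for KLB with PFA, -0.0704 to 0.174 for NR1H4 with OO + PFA, -0.0917 to 0.0598 for FGFR4 between OO + PFA and OO, and for the interaction -0.466 to 0.0359 for SLC51A, -0.238 to 0.366 for SLC51B and -0.078 to 0.231 for FGFR4. With total counts the tissue difference was 0.0304 for NR1H4 and 0.00067 for FGFR2. Depth limits SLC10A2, FABP6, SLC51A and FGF19 in liver and FGF19 and KLB in ileum.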
